A study of Mus musculus with 4 samples.

Results

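The genes described here are those of the constitutive proteasome: 46 mouse genes whose symbol in the deposited files begins with Psma, Psmb, Psmc, Psmd, Psme, Psmf or Psmg followed by a number, out of 55416 genes in the files. They were matched by name and not by any measured value, though the group was chosen with earlier results of these data known. The interferon-induced catalytic subunits Psmb8, Psmb9 and Psmb10 were set apart. By role they comprised 14 subunits of the core particle, 9 of the base, 8 of the lid, 5 activator genes, 4 assembly chaperones of the core, 3 assembly chaperones of the base, the regulator gene Psmf1 and 2 tissue-restricted core paralogs. A gene was tested where its mean over the 4 libraries reached 0.5 TPM (transcript abundance corrected for transcript length and scaled to a fixed total per library), and 44 of the 46 did. The 2 others were the tissue-restricted paralogs Psma8 and Psmb11.

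The proteasome is the protease that degrades ubiquitin-tagged proteins in the cytosol and nucleus. Its barrel-shaped core is built from rings of α subunits, which gate the entrance, and rings of β subunits, some of which carry the proteolytic sites. A regulatory particle caps the core: its base holds ATPases that unfold substrates and its lid holds the deubiquitinase that removes ubiquitin chains, while alternative activators open the gate without ATP. In muscle, proteasomal degradation is known for its part in the turnover of myofibrillar proteins and in atrophy.

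C2C12, a line of mouse myoblasts, was transiently transfected with 3 µg of DNA, and its RNA was sequenced from cells harvested 24 h later. One group received K97E lamin A, which the labels call a mutant of dilated cardiomyopathy (2 libraries), and the other received wild-type lamin A (2 libraries). Lamin A, which builds the meshwork under the inner nuclear membrane, was thus added on top of the cells' own Lmna gene product. No untransfected cells were analysed here, the share of cells that took up the DNA is not given, and the titles of the K97E samples spell the line C1C12 where their cell line label says C2C12. The samples are titled biological replicates, but separate cultures or transfections are not stated, so the p-values here rest on a spread between samples that may be technical.

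Estimated from coverage, the K97E libraries held 115600000 and 107800000 reads of 100 bases, against 89600000 and 106400000 in the wild-type libraries. Mitochondrial transcripts took 5.55% and 5.29% of TPM in K97E libraries, against 7.37% and 5.37% in wild-type libraries. Of 10 myoblast markers 8 reached a mean of 0.5 TPM, and Pax7 and Myog did not. Des stood at 401 and 384 TPM in K97E libraries against 404 and 467 TPM in wild-type libraries. Of all cell type markers tested, 1 had an unadjusted limma p under 0.05, the myoblast marker Chrna1 (log2 difference -0.37, adjusted p = 0.965). The markers of leukocytes summed to 4.73 and 3.40 TPM in K97E libraries and 4.06 and 5.90 TPM in wild-type libraries. Cd68 made up most of this, at 4.47 and 3.17 TPM in K97E libraries and 3.88 and 5.48 TPM in wild-type libraries. Cd3e and Adgre1 were at 0 in all 4. Endothelial markers, mostly Cdh5, summed to 20.93 and 22.1 TPM in K97E libraries and 24.85 and 22.13 TPM in wild-type libraries. Lmna read 659.7 and 629 TPM in K97E libraries, against 558 and 596 TPM in wild-type libraries (log2 difference 0.10, limma adjusted p = 0.965). Reads of the transfected DNA could not be separated from those of the endogenous gene, so this does not check the labels.

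No proteasome gene differed between K97E and wild-type lamin A in the test. The fit compared log2(TPM + 0.5), after scaling, over all 16304 tested genes with limma, two-sided, and adjusted p by Benjamini and Hochberg. None of the 44 tested proteasome genes was called in either direction, where 0.00613% of all tested genes were called higher (1 gene) and 0.0% lower. By value 21 of the 44 were higher and 23 lower with K97E, with a median log2 difference of -0.01, where the median of all tested genes was -0.0017. On TPM as deposited the split was 28 higher and 16 lower, 36.4% lower where 36.7% of all tested genes were lower, so the counts by role are given on the scaled values and follow the scale. Their adjusted p lay between 0.965 and 0.999. None had an unadjusted p under 0.05, where 3.68% of all genes did, and the smallest unadjusted p of the group was 0.113, for Psmg3. Without the second wild-type library the median log2 difference of the members was -0.074. The difference was then -0.41 for Psma4, -0.36 for Psmb2 and 0.38 for Psmb4.

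The intervals limit how large a difference these libraries leave room for. For 41 of the 44 genes the 95% interval from limma lay within 1.5-fold in either direction, and for all 44 it lay within 2-fold. The 3 genes with an interval that passed 1.5-fold were Psma4, Psmb4 and Psme1. The differences ran from -0.28 on the log2 scale, for the activator gene Psme1, to 0.25, for the core subunit gene Psmb4. The median size of the difference was 0.077 over proteasome genes, 0.086 over the 8163 genes with a mean of at least 15 TPM and 0.10 over all tested genes. In 4 proteasome genes the values of the K97E libraries did not overlap those of the wild-type libraries, 9.09% of the 44, where this held for 33.1% of all tested genes. Psmg2 and Psmg3 lay above wild type in both K97E libraries, where 16.3% of all tested genes did, and Psmd8 and Psmd10 lay below it, where 16.8% did. These counts too are on scaled values: on TPM as deposited 12 of the 44 lay above, where 25.9% of all tested genes did, and 1 lay below, where 9.72% did. A gene such as Psmb5 or Psmd2, whose printed TPM do not overlap, can therefore overlap after scaling.

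**Figure D1:**
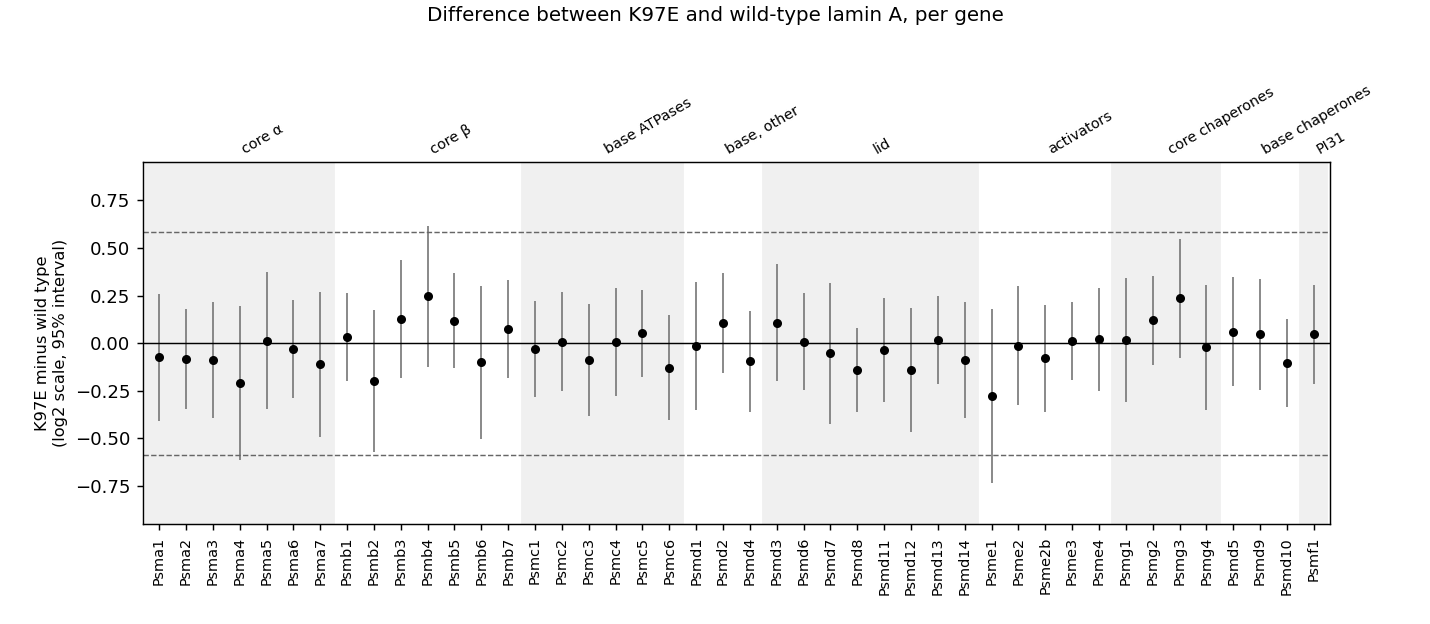
Difference between K97E and wild-type lamin A for each of the 44 tested proteasome genes, on the log2(TPM + 0.5) scale, with points for the limma estimate and bars for its 95% interval. Dashed lines mark a 1.5-fold difference, and the bars of 41 genes stay inside both lines.

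Summed over the core, base, lid or activators, TPM as deposited overlapped between the groups. The 14 core subunits together had 2564 and 2864 TPM in K97E libraries, against 2806 and 2541 TPM in wild-type libraries, so that one library of each group was high and one was low. Their means were 2714 ± 212 TPM with K97E and 2673 ± 187 TPM with wild type (SD, n = 2 each), a log2 ratio of 0.022 with a two-sided exact permutation p of 0.667. The 9 base subunits summed to 1745 and 1839 TPM in K97E libraries and 1806 and 1690.0 TPM in wild-type libraries (log2 ratio 0.036, exact permutation p = 0.667). The same overlap was seen in the 8 lid subunits, at 1003 and 1077 TPM in K97E libraries and 1098 and 975 TPM in wild-type libraries (log2 ratio 0.0055, exact permutation p = 1). The 5 activator genes gave 1638 and 1840 TPM in K97E libraries and 1983 and 1707 TPM in wild-type libraries (log2 ratio -0.085, exact permutation p = 0.667). The 4 assembly chaperones of the core did not overlap on this scale, at 153 and 162 TPM in K97E libraries against 151 and 141 TPM in wild-type libraries (log2 ratio 0.10, exact permutation p = 0.33). With 2 libraries a group this test cannot go below 0.33. The signs for core, base and lid depended on the scale: on TPM divided by the scaling factors the log2 ratios were -0.034, -0.021 and -0.051. Divided by these factors, the summed core chaperones overlapped too, with the first K97E library below the first wild-type library. Among single genes on TPM as deposited, 25.9% of all tested genes lay above wild type in both K97E libraries. All 46 genes together took 0.722% and 0.790% of TPM in K97E libraries and 0.795% and 0.717% in wild-type libraries. In RNA from whole cultures, fewer cells of a type and less RNA per cell cannot be told apart.

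Levels corrected for length were close among subunits of the complex and lower for the chaperones. Over the 4-library means of the 14 core genes the coefficient of variation was 30.4%, with the highest, Psmb6, 3.18-fold above the lowest, Psmb5. Over the 9 base genes it was 25.6%, and over the 8 lid genes 31.3%. The median gene level was 188 TPM in the core, 183 TPM in the base and 133 TPM in the lid. Assembly chaperones, which leave the finished particle, had medians of 35.2 TPM for those of the core and 32.0 TPM for those of the base. The 5 activator genes were the most uneven, with a coefficient of variation of 92.7% and a 15.1-fold range.

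**Figure D2:**
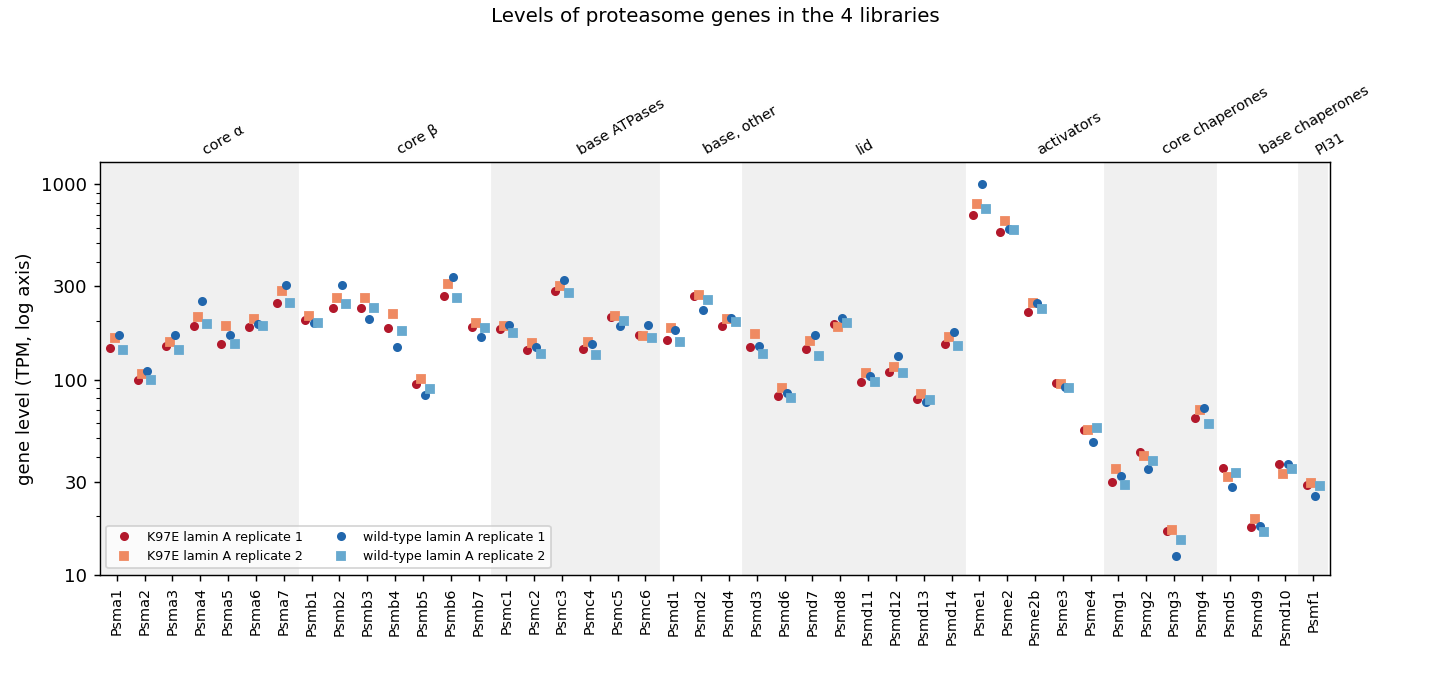
Level of each proteasome gene in each library, in TPM on a log axis, grouped by role, with K97E and wild-type libraries as separate marks. By 4-library mean, core, base and lid genes range from Psmd13 to Psmc3, and points of single libraries pass both of these means. The activator genes Psme1 and Psme2 lie above the core, base and lid genes, and the assembly chaperones lie below.

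The α subunits form the outer rings of the core, and 1 of 7 was higher and 6 were lower by value with K97E, none of them called. Psma4 had the lowest difference of the core: it read 187 and 209.7 TPM in K97E libraries, against 253 and 192 TPM in wild-type libraries (log2 difference -0.21, 95% interval -0.61 to 0.19, limma adjusted p = 0.965). The first wild-type library was the highest of the 4, and the other lay between the K97E libraries. Psma5 was the 1 α gene with a positive estimate, at 152 and 187 TPM in K97E libraries and 169 and 153 TPM in wild-type libraries, a log2 difference of 0.014. Psma7, the most abundant α gene, had 246 and 284 TPM in K97E libraries and 306 and 246 TPM in wild-type libraries. The least abundant was Psma2, with 99.9 and 107 TPM in K97E libraries and 111 and 99.7 TPM in wild-type libraries.

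The β subunits form the inner rings, and 5 of 7 were higher and 2 lower by value with K97E, none of them called. Psmb4, a structural β subunit without a proteolytic site, had the highest estimate of all 44 genes. It read 183 and 216 TPM in K97E libraries, against 147 and 177 TPM in wild-type libraries, a log2 difference of 0.25 (95% interval -0.12 to 0.62, limma adjusted p = 0.965). On the scaled values the groups overlapped, since the first K97E library fell just under the second wild-type library. The 3 genes of the proteolytic subunits did not move one way. Psmb5, which carries the chymotrypsin-like site and is the target of bortezomib, had 94.6 and 101 TPM in K97E libraries and 83.1 and 89.9 TPM in wild-type libraries, a log2 difference of 0.12. Psmb6, the caspase-like subunit, had 269 and 308 TPM in K97E libraries and 336 and 261 TPM in wild-type libraries, a log2 difference of -0.10. Psmb7, the trypsin-like subunit, had 186 and 196 TPM in K97E libraries and 165 and 183 TPM in wild-type libraries, a log2 difference of 0.075. Psmb2, at 232 and 262 TPM in K97E libraries and 305 and 243 TPM in wild-type libraries, had the lowest estimate of the β genes (log2 difference -0.20). The exons of Psmb7 overlap those of Nek6 on the other strand, and the authors' quantification used no strand option, so reads of the pair could be credited to either.

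The 6 base ATPases are encoded by Psmc1 to Psmc6, of which 3 were higher and 3 lower by value, none of them called. Psmc3 was the most abundant, at 286 and 300.2 TPM in K97E libraries and 323 and 277 TPM in wild-type libraries, and its exons overlap those of Slc39a13. Psmc6 had the lowest estimate, at 169 and 167 TPM in K97E libraries and 191 and 163 TPM in wild-type libraries (log2 difference -0.13). On TPM as deposited the K97E libraries lay inside the range of the wild-type libraries for both genes, and after scaling the first K97E library differed from the lower wild-type library by -0.044 on the log2 scale for Psmc3 and -0.035 for Psmc6. Psmc5 had the highest estimate of the ATPases, at 209 and 211 TPM in K97E libraries and 189 and 200.4 TPM in wild-type libraries (log2 difference 0.052). The least abundant ATPase gene was Psmc2, with 142 and 154 TPM in K97E libraries and 146 and 136 TPM in wild-type libraries. Among the other base genes, the scaffold subunit Psmd2 had 267 and 273 TPM in K97E libraries and 227 and 255 TPM in wild-type libraries (log2 difference 0.11). Psmd1, the other large scaffold subunit and the least abundant of these, had 159.7 and 185 TPM in K97E libraries and 179.5 and 155 TPM in wild-type libraries. The ubiquitin receptor Psmd4 read 187 and 206 TPM in K97E libraries and 207 and 196 TPM in wild-type libraries (log2 difference -0.094).

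Lid genes stood at 3 higher and 5 lower by value, and at 5 higher and 3 lower on TPM as deposited. Psmd14, the deubiquitinase, had 152 and 165 TPM in K97E libraries and 176 and 149 TPM in wild-type libraries, a log2 difference of -0.089 (95% interval -0.39 to 0.22). Psmd3 had the highest estimate, at 147 and 170.4 TPM in K97E libraries and 148 and 135 TPM in wild-type libraries (log2 difference 0.11), and its exons overlap those of the predicted gene Gm12356. One K97E library of Psmd3 lay between the wild-type libraries after scaling, and the other stood above them. Psmd8, the most abundant lid gene, had 192 and 186 TPM in K97E libraries, against 206 and 195 TPM in wild-type libraries, both lower with K97E (log2 difference -0.14, 95% interval -0.36 to 0.077, limma adjusted p = 0.965). Psmd13, the least abundant, had 79.4 and 83.9 TPM in K97E libraries and 76.7 and 78.5 TPM in wild-type libraries, and its exons overlap those of Sirt3.

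The activators cap the core in place of the regulatory particle. Psme1 and Psme2 encode the subunits of the interferon-inducible PA28 ring. Psme1 was the most abundant of all proteasome genes and had the lowest estimate, at 697 and 797 TPM in K97E libraries against 1005 and 748 TPM in wild-type libraries (log2 difference -0.28, 95% interval -0.73 to 0.18, limma adjusted p = 0.965). The first wild-type library alone stood above the rest, and the exons of Psme1 overlap those of Emc9 on the other strand. The ratio of Psme1 to Psme2 was 1.23 in each K97E library, against 1.70 and 1.28 in wild-type libraries (exact permutation p = 0.33, the smallest possible). Psme3, which encodes the nuclear PA28 homologue, had 95.9 and 94.5 TPM in K97E libraries and 91.3 and 90.2 TPM in wild-type libraries. Psme4, which encodes the large single-chain activator PA200, had 55.1 and 54.9 TPM in K97E libraries and 48.1 and 56.4 TPM in wild-type libraries. After scaling, the groups of both overlapped, and their log2 differences were 0.011 and 0.020.

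Psme2 on chromosome 14 has a near copy, Psme2b, a single exon on chromosome 11, and the stretch that holds 3 of their 5 differences is shown because it bears on how their reads can be told apart. The bases are those of the GENCODE M21 transcripts, 5′ to 3′, from 652 to 741 of Psme2 and from 526 to 615 of Psme2b, with the differing bases in capitals.
Psme2: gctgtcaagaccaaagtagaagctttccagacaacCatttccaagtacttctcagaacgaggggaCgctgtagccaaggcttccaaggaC
Psme2b: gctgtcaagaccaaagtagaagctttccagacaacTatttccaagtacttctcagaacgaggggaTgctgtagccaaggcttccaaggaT
Over 794 aligned bases 789 were identical, or 99.4%, and 55.3% of the 100-base windows held no difference at all. Psme2 had 569 and 647 TPM in K97E libraries and 593 and 583 TPM in wild-type libraries, and Psme2b had 221 and 247 TPM in K97E libraries and 246 and 229 TPM in wild-type libraries. How the reads were divided between the pair is uncertain at this identity. Their transcripts differ in length, at 962 bases for Psme2 and 837 for Psme2b, so the summed TPM can also shift with that division. The sum was 790.2 and 894 TPM in K97E libraries and 838 and 812 TPM in wild-type libraries. The exon of Psme2b also lies within that of 9930111J21Rik1 on the same strand.

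The assembly chaperones bind unfinished particles and are released from the mature one. Of the 4 chaperones of the core, 3 were higher and 1 lower by value with K97E, none of them called. Psmg3 read 16.8 and 16.9 TPM in K97E libraries, against 12.4 and 15.0 TPM in wild-type libraries, both higher with K97E (log2 difference 0.24, 95% interval -0.077 to 0.55, limma adjusted p = 0.965). Psmg2 read 42.4 and 40.6 TPM in K97E libraries, against 34.9 and 38.4 TPM in wild-type libraries, again both higher (log2 difference 0.12). Their partners overlapped between groups: Psmg1 had 29.7 and 34.9 TPM in K97E libraries and 32.2 and 28.9 TPM in wild-type libraries. Psmg4 had 63.9 and 69.6 TPM in K97E libraries and 71.8 and 58.9 TPM in wild-type libraries. Of the chaperones of the base, Psmd10, known as gankyrin, read 36.8 and 33.0 TPM in K97E libraries and 37.0 and 34.9 TPM in wild-type libraries (log2 difference -0.10), and after scaling both K97E libraries were lower. Psmd5 had 35.0 and 31.5 TPM in K97E libraries and 28.1 and 33.3 TPM in wild-type libraries. Psmd9 had 17.5 and 19.4 TPM in K97E libraries and 17.8 and 16.4 TPM in wild-type libraries. The groups overlapped for both. Psmf1, which encodes the proteasome regulator PI31, had 28.6 and 29.3 TPM in K97E libraries and 25.4 and 28.5 TPM in wild-type libraries (log2 difference 0.047).

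The tissue-restricted paralogs were at or near 0. Psma8, an α subunit of germ cells, was listed at 0 in all 4 libraries. Psmb11, the β subunit of thymic cortical epithelium, had 0.00805 and 0.00208 TPM in K97E libraries and 0.00086 and 0 TPM in wild-type libraries.

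In the K97E pair the proteasome genes differed between replicates largely together, and in the wild-type pair they did so less. Of the 44 genes, 42 (95.5%) were higher in the second than in the first K97E library, with a median log2 difference of 0.18, while 49.9% of all tested genes were, with a median of -0.0002. The exceptions were the base chaperones Psmd5 and Psmd10. All 14 core genes, 9 base genes, 8 lid genes and 5 activator genes were higher in the second K97E library on the scaled values, and 14, 8, 7 and 3 of them on TPM as deposited. In the wild-type pair 32 of 44 (72.7%) were higher in the first library, with a median of 0.11, against 49.6% of all tested genes. Between groups, the first K97E library differed from the first and second wild-type libraries by member medians of -0.17 and -0.048. The second K97E library differed from them by 0.022 and 0.10. The differences between replicates were thus similar in size to the largest of these. The share depended in part on the scale: on TPM as deposited 37 of the 44 (84.1%) were higher in the second K97E library, where 35.8% of all tested genes were, and after quantile normalization 41 were.

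**Figure D3:**
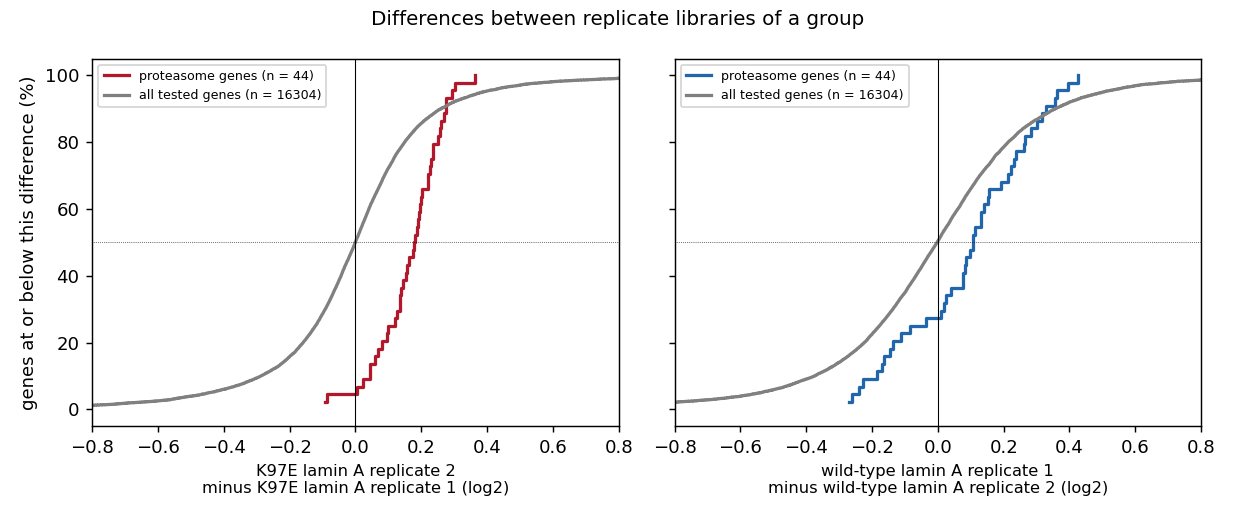
Cumulative share of genes, in percent, at or below each log2 difference between replicate libraries, for the second minus the first K97E library (left) and the first minus the second wild-type library (right), with the 44 proteasome genes as coloured steps and the 16304 tested genes as a grey curve. The proteasome steps lie to the right of 0 for 42 genes in the K97E pair and for 32 in the wild-type pair, and the grey curve crosses 0 near its median.

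The α and β subunits parted in the wild-type pair. All 7 α genes were higher in the first wild-type library, by 0.039 to 0.40 on the log2 scale with a median of 0.26, while 3 of the 7 β genes were, with a median of -0.11. Psmb4 marked the low end of all members at -0.27 and Psme1 the high end at 0.43. In the K97E pair both kinds of subunit were higher in the second library, with medians of 0.23 for α genes and 0.23 for β genes. The first wild-type library was also the one with the highest mitochondrial share and the lowest number of reads, and the part of either in these differences was not tested.

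Most proteasome genes were read from a single main transcript. In 33 of the 44 the leading transcript held at least 80% of the gene's TPM in every library, and 43 of the 44 leading transcripts are annotated as protein coding in GENCODE M21. The exception was Psma3, whose leading transcript is annotated as a retained intron and held 39.9% and 36.0% of the gene in K97E libraries and 35.9% and 41.0% in wild-type libraries. In 4 genes, named after their values were seen, a transcript's share varied by at least 20 percentage points between libraries: Psmd8, Psmc2, Psmd5 and Psmf1. The leading transcript of Psmc2 held 71.4% and 82.9% in K97E libraries, against 94.7% and 86.3% in wild-type libraries. For Psmd5, a retained-intron transcript held 3.0% and 3.6% in K97E libraries, against 21.8% and 13.0% in wild-type libraries. The leading transcript of Psmf1 held 89.0% and 88.3% in K97E libraries, against 94.9% and 64.7% in wild-type libraries. The shares of Psmc2 and Psmd5 did not overlap between groups and those of Psmf1 did, but as these were picked for their range they are given as values only.

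Psmd8 varied most in transcript makeup while its gene level stayed close. Its 3 main transcripts lie on the minus strand of chromosome 7 (GRCm39), share the 3′ end at 28873613, have 7 exons each, and start at 28879977, 28880098 and 28880126, so that the longer pair extend 121 and 149 bases further 5′. The shortest held 82.9% and 40.8% of the gene's TPM in K97E libraries, against 30.2% and 85.6% in wild-type libraries. The longest had 0.856 and 46.1 TPM in K97E libraries, against 57.6 and 0.258 TPM in wild-type libraries, and the middle one had 0.644 and 43.0 TPM in K97E libraries, against 60.9 and 0.235 TPM in wild-type libraries. One library of each group thus had almost none of the longer forms and the other library had all 3, so the makeup did not separate the groups.

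**Figure D4:**
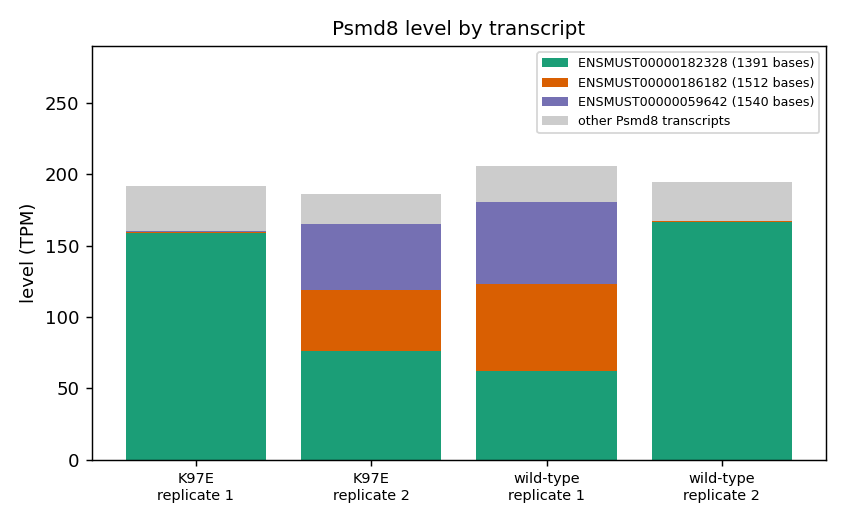
Stacked TPM of Psmd8 in each library, with colours for its 3 main transcripts and grey for its other transcripts, and K97E libraries left of wild-type libraries. The longer forms are near 0 in the first K97E and the second wild-type library and lie between 43.0 and 60.9 TPM in the other 2 libraries, while the bars have similar heights.

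The interferon-induced subunits, which replace Psmb6, Psmb7 and Psmb5 in the immunoproteasome, were measured beside the constitutive ones. Psmb8 had 19.8 and 27.0 TPM in K97E libraries, against 37.4 and 25.5 TPM in wild-type libraries (log2 difference -0.47, 95% interval -1.06 to 0.13). Psmb9 had 62.3 and 77.0 TPM in K97E libraries, against 81.5 and 85.6 TPM in wild-type libraries (log2 difference -0.33, 95% interval -0.67 to 0.021). Neither was called by limma at an adjusted p of 0.05. Both K97E values of Psmb9 lay below both wild-type values, which held for 16.8% of all tested genes on scaled values. On TPM as deposited it held for 9.72%. With a library left out the difference ran from -0.74 to -0.20 for Psmb8 and from -0.51 to -0.14 for Psmb9, and it was -0.042 for Psmb9 when only the highest transcript of each gene was used. Psmb10 was the most abundant of the set, at 296 and 319.5 TPM in K97E libraries and 299.9 and 291 TPM in wild-type libraries. The ratio of Psmb8 to its constitutive counterpart Psmb5 was 0.209 and 0.268 in K97E libraries, against 0.450 and 0.284 in wild-type libraries (exact permutation p = 0.33, the smallest possible). That of Psmb9 to Psmb6 was 0.232 and 0.250 in K97E libraries, against 0.243 and 0.328 in wild-type libraries, and that of Psmb10 to Psmb7 was 1.59 and 1.63 in K97E libraries, against 1.81 and 1.59 in wild-type libraries.

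Other genes of the pathway were read from 7 lists with 54 tested genes, these 3 included, of which 22 were higher and 32 lower by value with K97E. None was called and none had an unadjusted p under 0.05. The remaining proteasome partners stood at 4 higher and 5 lower, ubiquitin and E1 genes at 3 and 3, shuttle factors at 2 and 4, p97 with its cofactors at 3 and 6, and ubiquitin ligases of muscle and of protein quality control at 5 and 5. In the list around NRF1, the transcription factor known to induce proteasome genes when proteasome activity is low, 5 were higher and 6 lower. Nfe2l1, which encodes NRF1, had 166.5 and 211 TPM in K97E libraries and 188 and 179 TPM in wild-type libraries (log2 difference -0.027). When only its highest transcript was used the difference was -1.21 (limma adjusted p = 0.959). Nfe2l2, which encodes the related NRF2, had 180.3 and 178 TPM in K97E libraries, against 198 and 186 TPM in wild-type libraries (log2 difference -0.16, 95% interval -0.38 to 0.065). Nfe2l1 was higher in the second than in the first K97E library, as were 49.9% of all tested genes. A link between its level and that of the members was not tested.

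Across the lists, the genes with the smallest p-values went in both directions, though within most lists they shared a sign. None passed the test, with limma adjusted p of 0.965 or above for each gene named here. Ufd1 and Nploc4 encode the pair of cofactors that brings ubiquitylated substrates to p97, and their estimates had opposite signs. Nploc4 had 90.7 and 88.0 TPM in K97E libraries, against 72.4 and 81.2 TPM in wild-type libraries (log2 difference 0.16). Ufd1 had 74.7 and 71.5 TPM in K97E libraries, against 78.6 and 75.4 TPM in wild-type libraries (log2 difference -0.13). Rad23b, which carries ubiquitin chains to the proteasome, had 247 and 251 TPM in K97E libraries and 289 and 236.5 TPM in wild-type libraries (log2 difference -0.13). Nub1, which takes NEDD8 and its conjugates to the proteasome, had 137 and 142.5 TPM in K97E libraries and 155 and 139.7 TPM in wild-type libraries (log2 difference -0.13). On TPM as deposited both K97E values lay inside or just under the wild-type range for these carriers. The ligase gene Stub1, which tags chaperone-bound proteins, had 157 and 149.6 TPM in K97E libraries, against 126 and 143 TPM in wild-type libraries (log2 difference 0.13). Fbxo21, an F-box gene, had 14.4 and 13.0 TPM in K97E libraries, against 10.6 and 12.3 TPM in wild-type libraries (log2 difference 0.19). The small Maf gene Mafk had 35.8 and 37.7 TPM in K97E libraries, against 41.9 and 38.9 TPM in wild-type libraries (log2 difference -0.19). The differences of 3 more were smaller. The ubiquitin-activating enzyme gene Uba1 gave -0.060. The small lid subunit Sem1 and the deubiquitinase Uchl5 gave -0.12 and -0.068.

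Promoters of proteasome genes were searched for the core of the antioxidant response element, to which NRF1 and NRF2 bind with small Maf partners. RefSeq windows of GRCm38.p6, 250 bases before to 50 after the gene start, were found for 38 members. The letters TGACNNNGC occurred on either strand in 6 of them, or 15.8%, where 14.0% of 27025 genes held it. The CCAAT box occurred in 13, or 34.2%, with the untested Psmb11 among them, where 41.1% of all genes held it. The share of members with the antioxidant response element core was thus close to that of all genes, and the share with the CCAAT box was lower. Neither difference was tested. The 3 members with the motif on the gene's own strand before the start are given, 5′ to 3′ on that strand, with the motif in capitals. They are Psmb5 at chr14:54618004-54618072 on the minus strand, Psmb6 at chr11:70525318-70525356 on the plus strand and Psmd9 at chr5:123228129-123228189 on the plus strand.
Psmb5: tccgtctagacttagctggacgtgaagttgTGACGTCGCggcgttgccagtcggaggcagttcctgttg
Psmb6: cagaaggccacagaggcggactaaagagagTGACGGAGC
Psmd9: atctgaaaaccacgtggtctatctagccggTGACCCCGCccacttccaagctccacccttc
The motif begins 47, 9 and 31 bases before the start of Psmb5, Psmb6 and Psmd9. These matches describe the letters in the window, and binding was not measured.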

How the data were processed

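Stranded mRNA libraries gave paired reads of 100 bases, per the labels' protocols. FastQC, HISAT2, SAMtools, StringTie 2.1.7 and DESeq2 are named for build GRCm39 in the submitters' processing notes, and the use made of DESeq2 was not given in the sources used here. Per the file headers, StringTie ran on the Ensembl 104 annotation with no strand option, and the deposited files give coverage, FPKM and TPM for 142434 transcripts of each library. They hold no read counts, so reads were estimated from coverage times length, and no counting interval was computed.

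Gene values were TPM summed over the transcripts of a gene identifier. Scaling was by median-of-ratios factors from genes above 1 TPM (1.04 and 1.00 for K97E libraries, 0.980 and 0.980 for wild-type libraries), and log2 was taken after a pseudocount of 0.5. Printed TPM are as deposited. Genes with a mean of at least 0.5 TPM were tested with limma 3.58.1 in R 4.3.3 (eBayes with trend, 5.54 degrees of freedom), with Benjamini-Hochberg adjustment at 0.05. Sums and ratios were compared by exact permutation over libraries. The members, lists and tests were chosen with earlier results of these data known. Genes named were, per role, the highest and lowest by difference and by level, all activators, chaperones and Psmf1, the 2 smallest p of each pathway list, Nfe2l1, Nfe2l2 and Lmna; others illustrate a role or a pattern and were named after their values were seen. 1 gene that the rule selects is left out. Replicate numbers are not stated to pair cultures, so they were not used as pairs. Deviations of same-numbered libraries correlated at -0.14 and those of crossed libraries at 0.14, which are opposite by construction. Exons of 6 members overlap those of another gene. Transcript biotypes and sequences came from GENCODE M21, matched by identifier, and its coordinates were not used. Python 3.11.15, pandas 2.3.3, Biopython 1.88 and matplotlib 3.10.9 were used.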

Additional observations from a re-analysis of the deposited data

How the results depend on the processing

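No proteasome gene was called under any of the 15 alternatives to the fit, which were other pseudocounts (0.1 and 1), filters, scalings, FPKM, 1 transcript per gene, eBayes without trend, the replicate block, the crossed pairing and each library left out. Of 46 named genes, 0 passed the threshold under any setting, and 642 of 690 gene and setting pairs kept their direction. The filters, eBayes without trend, the replicate block and the crossed pairing leave the estimate itself unchanged, so their pairs could not change direction. Of the 46 named genes, 21 kept their direction under every setting. Over all genes, 1 was called higher and 0 lower. The count called higher was 0 with no filter, 4 with 1 transcript per gene, 0 with the replicate block, and 0 to 4 with a library left out. The count called lower was 1 on TPM as deposited, 1 without trend, and 0 to 14 with a library left out (14 without the first wild-type library). The crossed pairing, chosen after seeing the data, gave 3 higher and 27 lower.

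The median log2 difference with a library left out ran from -0.12 to 0.068 over all members, from -0.16 to 0.053 in the core, from -0.099 to 0.092 in the base, from -0.15 to 0.060 in the lid and from -0.14 to 0.032 in the activators. The summed log2 ratio ran from -0.060 to 0.099 in the core, from -0.011 to 0.085 in the base, from -0.078 to 0.094 in the lid and from -0.19 to 0.027 in the activators. Divided by the factors, core, base and lid gave -0.034, -0.021 and -0.051, and on FPKM core and lid gave -0.0077 and -0.024. Signs also turned for Nfe2l1 (0.031 as deposited, 0.0082 quantile), Psmd1 (0.043, 0.013), Psme2 (0.046, 0.084, and 0.030 with 1 transcript), Psmg4 (0.035 as deposited) and Uba1 (0.025 quantile). With 1 transcript per gene they turned for Psmc2 (-0.22), Psmc3 (0.036), Psmd8 (0.048) and Stub1 (-0.072), while Nfe2l1 (-1.21) and Psmb9 (-0.042) kept theirs but moved most among the others. With a library left out, the sign turned within these ranges: -0.23 to 0.17 for Nfe2l1, -0.17 to 0.20 for Psma5, -0.27 to 0.044 for Psma7, -0.28 to 0.077 for Psmb6, -0.084 to 0.097 for Psmc2, -0.20 to 0.020 for Psmc3, -0.15 to 0.12 for Psmd1, -0.059 to 0.086 for Psmd13, -0.032 to 0.24 for Psmd3, -0.19 to 0.0040 for Psmd4, -0.063 to 0.18 for Psmd5, -0.058 to 0.15 for Psmd9, -0.14 to 0.11 for Psme2, -0.19 to 0.031 for Psme2b, -0.013 to 0.032 for Psme3, -0.097 to 0.13 for Psme4, -0.037 to 0.13 for Psmf1, -0.13 to 0.16 for Psmg1, -0.16 to 0.12 for Psmg4, -0.27 to 0.014 for Rad23b, -0.32 to 0.079 for Sem1, -0.13 to 0.011 for Uba1 and -0.14 to 0.0051 for Uchl5. The cause was not tested.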
